A study of Homo sapiens with 3 samples.

Results

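The 10 genes described here are HIF1A, EPAS1, VEGFA, VEGFC, CA9, BNIP3, ADM, ANGPTL4, NDRG1 and EGLN3, genes of the cellular response to low oxygen and of blood vessel growth. They were chosen by gene symbol, through the RefSeq transcript that the array gives for each probe, and were 10 of the 25006 genes that could be named. They were read by 12 of 58201 probes, since HIF1A and VEGFA have 2 probes each, and by 30 spots per array. Where 1 value stands for a gene, it is that of its brightest probe.

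The samples were clones of U87, an established glioma cell line. U87WT 5 carries the IGF1 receptor fused to GFP, which is labelled as nuclear, and U87Mut 5 carries the same fusion with a receptor altered at 3 lysines, labelled as non-nuclear; both are referred to as U87WT and U87Mut. Each clone is a single stably transfected line, and untransfected U87 cells were not analysed here. RNA of U87WT (Cy5) and of U87Mut (Cy3) was hybridized together on each of 3 two-color arrays. The arrays hold cells kept for 24 h in FBS-free medium, cells given 50 nM IGF1 for 24 h, and cells given 50 nM IGF1 with OSI906, an inhibitor of the IGF1 receptor and insulin receptor kinases. The dose of OSI906 is 0.5 µM in the name of the sample and 500 µM in the label of its medium, and the preincubation is 24 h in the labels and shorter in the methods, so the dose and time of OSI906 are not settled. No sample was labelled as hypoxic. Each condition has 1 array and the dyes were not swapped, so a difference between the clones, a dye bias and the history of 1 clone cannot be told apart. Nothing says that the arrays came from separate cultures, and a test over them measures the spread between these arrays alone.

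HIF1A and EPAS1 encode the oxygen-sensitive subunits of the hypoxia-inducible factors. When oxygen is present, prolyl hydroxylases such as EGLN3 mark these subunits for destruction through the VHL protein, so the factors are set mostly by the stability of the protein and less by the level of the mRNA. The stabilized factors pair with ARNT and bind short elements with the core ACGTG or GCGTG near genes for vessel growth (VEGFA, ADM, ANGPTL4), pH control (CA9) and mitophagy (BNIP3), and gliomas are known for their dense, VEGFA-driven vessels. Growth factor signaling, including that of the IGF1 receptor, is also known to raise HIF1A protein and VEGFA.

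The promoters of 3 of these target genes are printed because the arrays measured them in opposite directions between the clones, ADM higher in U87WT and ANGPTL4 and BNIP3 higher in U87Mut. As given below, the ADM difference was large with OSI906 alone, and that of BNIP3 was small in every condition. Each is the 250 bases before the first base of the gene, from RefSeq on GRCh38.p14, read 5′ to 3′ in the direction of the gene. ADM lies on the plus strand with its promoter at chr11:10304823-10305072, ANGPTL4 on the plus strand at chr19:8363905-8364154, and BNIP3 on the minus strand at chr10:131981924-131982173. Capitals mark the cores ACGTG or GCGTG on either strand, so that a core on the opposite strand reads CACGT or CACGC.
ADM: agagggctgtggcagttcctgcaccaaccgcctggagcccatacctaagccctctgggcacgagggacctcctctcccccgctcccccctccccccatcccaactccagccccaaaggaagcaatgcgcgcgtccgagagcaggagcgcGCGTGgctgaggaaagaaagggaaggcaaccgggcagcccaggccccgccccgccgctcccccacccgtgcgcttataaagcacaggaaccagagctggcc
ANGPTL4: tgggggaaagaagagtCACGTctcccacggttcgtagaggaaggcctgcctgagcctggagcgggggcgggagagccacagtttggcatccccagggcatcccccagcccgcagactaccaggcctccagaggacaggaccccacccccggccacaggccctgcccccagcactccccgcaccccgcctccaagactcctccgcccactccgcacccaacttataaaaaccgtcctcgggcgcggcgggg
BNIP3: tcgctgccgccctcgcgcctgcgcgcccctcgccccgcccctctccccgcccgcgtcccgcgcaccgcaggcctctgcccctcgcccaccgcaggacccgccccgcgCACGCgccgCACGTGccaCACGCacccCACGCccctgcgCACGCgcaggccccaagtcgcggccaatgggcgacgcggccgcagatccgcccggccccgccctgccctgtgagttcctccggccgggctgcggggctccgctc

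ADM holds 1 GCGTG, 101 bases before its start, and ANGPTL4 holds 1 ACGTG on the opposite strand, 234 bases before its start. BNIP3 holds 4 GCGTG and 2 ACGTG, and the ACGTG pair is 1 palindrome counted once on each strand. At least 1 of the cores stands in 43.2% of the 35116 promoters of the same length, and ACGTG in 18.5%. Promoters were taken for 8 of the 10 genes. VEGFA had no entry in the source used. Promoters on chromosome 8, where NDRG1 lies, were left out for the 10 genes but not for the shares above. These letters are a description of the sequence and not of binding.

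Brightness is the median of a spot as scanned, before normalization, against a local background with a median of 21 or 22. The scanner software marked 8 of the 10 genes as well above background in the Cy5 and Cy3 channels of all arrays, as it did 27677 of all probes. CA9 was marked in 5 of 6 channels and EGLN3 in 0 of 6. None of the spots of the 10 genes was saturated or marked as an outlier. The clone log2 ratio is the log2 of U87WT over U87Mut after background correction and loess normalization, and a ratio past 0.5 in size is counted as different on an array; such a count has no test. The only test of the clones is limma on the mean of the 3 ratios against 0, with p-values adjusted by Benjamini-Hochberg over all 58201 probes and called under 0.05; it takes the arrays, which are different conditions, as its replicates. RNA of a whole culture was measured, so that less RNA per cell and fewer cells with that RNA cannot be told apart.

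U87WT and U87Mut differed in both directions. On the arrays for FBS-free medium, IGF1 and IGF1 with OSI906, 0, 1 and 1 of the 10 genes lay above 0.5 and 3, 3 and 2 lay below -0.5. In the same order 2.43%, 2.84% and 2.24% of all probes lay above 0.5 and 2.26%, 1.79% and 2% below -0.5, and 9.48%, 9.11% and 8.79% of the probes well above background lay past 0.5 in either direction. NDRG1 and ANGPTL4 lay below -0.5 on all 3 arrays, as did 0.811% of all probes and 1.7% of those well above background. By limma, 4 of the 10 genes passed by their brightest probes, 1 higher in U87WT (HIF1A) and 3 lower (NDRG1, ANGPTL4 and BNIP3). VEGFA passed by its second probe only, as given below. Of all probes, 4.28% passed as higher and 4.15% as lower, and 17.2% of those well above background passed in either direction. Since the genes were chosen with results of these data known, the counts are a description, and nothing particular to these genes is read from them.

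**Figure D1:**
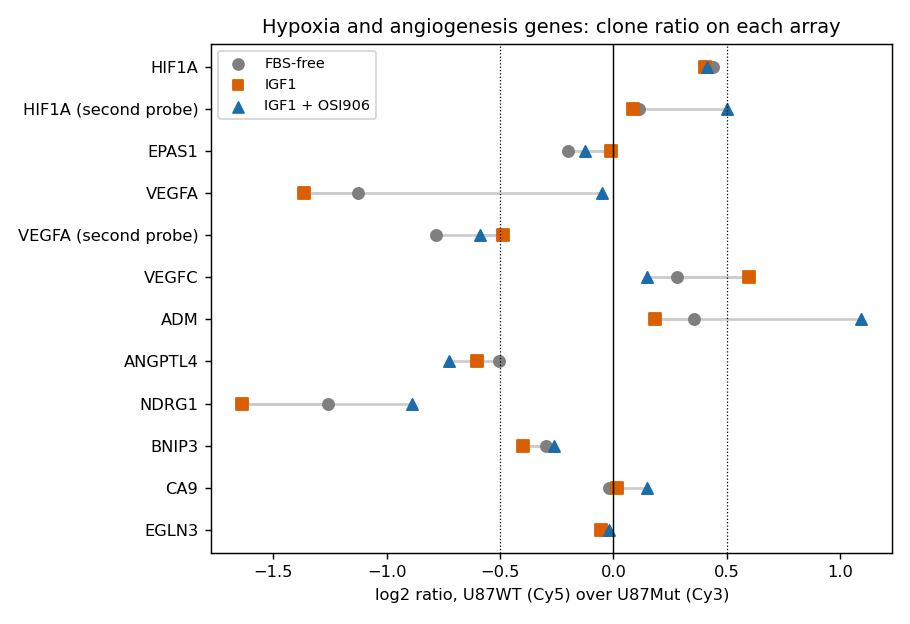
Clone log2 ratio (x axis, U87WT over U87Mut) of each probe of the 10 genes (rows) on the arrays for FBS-free medium (circles), IGF1 (squares) and IGF1 with OSI906 (triangles), 1 array each; dotted lines stand at -0.5 and 0.5. NDRG1 sits left of -0.5 on all 3 arrays, the 3 points of the brighter HIF1A probe lie between 0.40 and 0.44, and the triangles of the brighter VEGFA probe and of ADM stand apart to the right of their other points.

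Of the oxygen-sensitive subunits, HIF1A (chromosome 14, 61695513 to 61748258 on GRCh38.p14) was the more different between the clones. Its brightness was 1130, 985 and 1035 in U87WT and 864, 503 and 727 in U87Mut in FBS-free medium, IGF1 and IGF1 with OSI906. U87WT was the brighter clone on each array and the values of the clones did not overlap. The log2 ratio was 0.44, 0.40 and 0.41, a fold of 1.36, 1.32 and 1.33. This probe is printed as 10 spots on each array, and the ratio over spots was 0.44 ± 0.04, 0.40 ± 0.08 and 0.41 ± 0.06 (SD, n = 10 spots), with spots of the 3 arrays overlapping. By limma the mean was 0.42 ± 0.03 (SE, n = 3 arrays; adjusted p = 0.00718).

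The second HIF1A probe was dimmer, at 148, 200 and 229 in U87WT and 139, 136 and 144 in U87Mut. Its log2 ratio was 0.11, 0.09 and 0.50, so the probes of HIF1A had the same sign and differed in size in the first and second conditions. The mean by limma was 0.23 ± 0.09 (SE, n = 3 arrays; adjusted p = 0.258). The HIF1A ratio on the IGF1 array depends on the background fit. It was -0.05 with all spots in the fit and -0.11 in the table that the authors deposited. With all spots in the fit, limma called 0 of the 10 genes by their brightest probes.

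EPAS1, the HIF2 alpha subunit (chromosome 2, 46297407 to 46386697), was bright in both clones, at 22596, 27936.5 and 21228 in U87WT and 23447, 15410.5 and 17699 in U87Mut. After normalization these values were close, with log2 ratios of -0.20, -0.01 and -0.12. The mean by limma was -0.11 ± 0.05 (SE, n = 3 arrays; adjusted p = 0.300), and its sign on the IGF1 array turned with the background fit, to 0.38 with all spots. EGLN3, the hydroxylase that is itself induced by the factors, was not well above background in any channel (22 to 25 in U87WT and 26 to 26.5 in U87Mut), so neither a level nor a fold is given.

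VEGFA, the main ligand for the growth of vessels (chromosome 6, 43770211 to 43786487), was by its brighter probe lower in U87WT without and with IGF1 alone, and level with U87Mut once OSI906 was added. Brightness was 2022, 2667 and 4986 in U87WT and 4496, 4324 and 4398 in U87Mut. The clones were separate in the first and second conditions and met in the third, where U87WT reached its highest value. As log2 ratios these were -1.13, -1.36 and -0.05, which is 2.19, 2.57 and 1.04 times as much in U87Mut. Among the probes well above background, these ratios were at the 0.4, 0.2 and 40.5 percentiles. By limma the mean was -0.85 ± 0.27 (SE, n = 3 arrays; adjusted p = 0.164).

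The second VEGFA probe was dimmer and did not show that change. Its brightness was 377, 475 and 485 in U87WT and 719.5, 478 and 713 in U87Mut. U87Mut was the brighter clone on every array, by a trace on the IGF1 array before normalization. The clone ratio on the log2 scale was -0.78, -0.49 and -0.59, and the mean by limma was -0.62 ± 0.07 (SE, n = 3 arrays; adjusted p = 0.0122). Both probes gave U87WT the lower value on the first and second arrays. They disagreed on the third array, and where each lies in the transcripts of VEGFA is not given in the sources used here.

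VEGFC, the ligand known for the growth of lymphatic vessels (chromosome 4, 176683538 to 176792922), was 4375, 3592 and 2944 bright in U87WT and 3574, 1509 and 2356 in U87Mut. U87WT was the brighter clone on each array, and most so after IGF1. As log2 ratios these were 0.28, 0.60 and 0.15, and the mean by limma was 0.34 ± 0.09 (SE, n = 3 arrays; adjusted p = 0.119). VEGFC was the only one of the 10 genes above 0.5 on the IGF1 array, and there it was 0.36 with all spots in the background fit and 0.34 in the deposited table.

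ADM encodes adrenomedullin, a peptide that widens vessels and acts on the endothelium (chromosome 11, 10305073 to 10307397). Its brightness was 8145, 7039 and 10161 in U87WT and 6115, 3752 and 3940 in U87Mut. U87WT was the brighter clone on every array, and its value with OSI906 was the highest of the 6. The log2 ratio was 0.35, 0.18 and 1.09, a fold of 1.28, 1.14 and 2.14, and the ratio with OSI906 was at the 99.5 percentile of the probes well above background. The 10 spots of the ADM probe ran from 0.32 to 0.40, from 0.14 to 0.23 and from 1.05 to 1.14, so the spots of the 3 arrays did not overlap. Spots of 1 array share their RNA and hybridization, and their spread holds the error of the spot alone. By limma the mean was 0.54 ± 0.19 (SE, n = 3 arrays; adjusted p = 0.194), with the array for OSI906 far from the others.

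**Figure D2:**
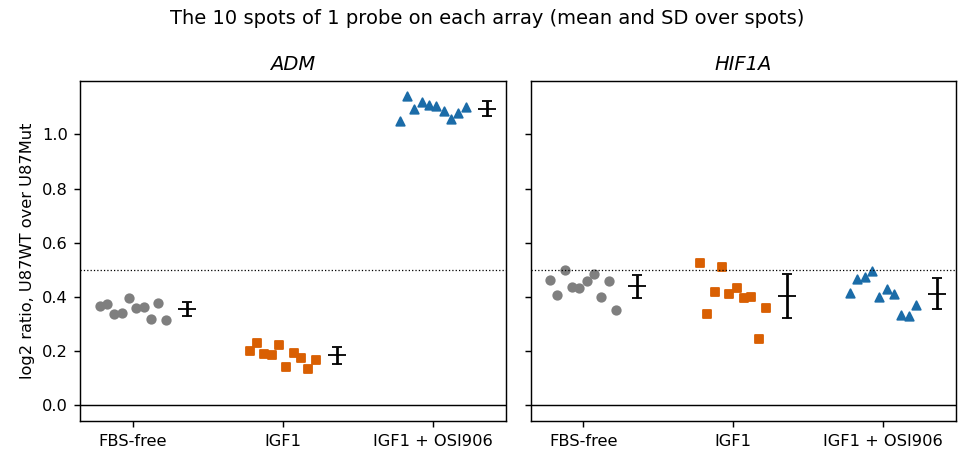
Clone log2 ratio (y axis, U87WT over U87Mut) of each of the 10 spots of the ADM probe and of the brighter HIF1A probe on each array (x axis), with the mean and SD over spots in black; the dotted line stands at 0.5. The ADM spots with OSI906 lie between 1.05 and 1.14, above all ADM spots of the other arrays, and the HIF1A spots overlap between arrays.

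ANGPTL4, a secreted inhibitor of lipoprotein lipase that also acts on vessels (chromosome 19, 8364155 to 8374370), was dim. Its brightness was 32, 33 and 41 in U87WT, and 63, 58 and 82.5 in U87Mut. U87Mut was the brighter clone throughout and the clones did not overlap. On the log2 scale the ratio was -0.50, -0.60 and -0.73, which is 1.42, 1.52 and 1.65 times as much in U87Mut, and the mean by limma was -0.61 ± 0.05 (SE, n = 3 arrays; adjusted p = 0.00839). Close to background, the offset that is added before the log pulls a ratio toward 0: with an offset of 20 in place of 50, the mean was -0.95, and on the IGF1 array with all spots in the background fit the ratio was -0.07.

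NDRG1 is a cytoplasmic protein of differentiation and stress whose mRNA is known to rise in hypoxia (chromosome 8, 133237175 to 133297252). Its brightness was 5068, 6210 and 5175 in U87WT and 11670, 11360.5 and 7977 in U87Mut. Every value of U87Mut lay above every value of U87WT. The clone ratio on the log2 scale was -1.26, -1.64 and -0.89, which is 2.39, 3.11 and 1.85 times as much in U87Mut, at the 0.2, 0.1 and 0.6 percentiles of the probes well above background. By limma the mean was -1.26 ± 0.15 (SE, n = 3 arrays; adjusted p = 0.0147), and it stayed below -0.5 on each array in all 9 settings for the ratio.

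BNIP3, a mitochondrial receptor for mitophagy (chromosome 10, 131967684 to 131981923), differed less. Its brightness was 3249.5, 3540 and 2491 in U87WT and 3995, 2931 and 2661 in U87Mut. The scanned values of the clones overlapped, and after normalization U87Mut was the higher clone on each array. The log2 ratio was -0.30, -0.40 and -0.26, which is 1.23, 1.32 and 1.20 times as much in U87Mut, and the mean by limma was -0.32 ± 0.04 (SE, n = 3 arrays; adjusted p = 0.0201). With the median in place of loess, its ratio on the IGF1 array was 0.14.

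CA9, the carbonic anhydrase of the cell surface that is a common marker of hypoxia (chromosome 9, 35673928 to 35681159), was near background. Its brightness was 42, 38 and 33 in U87WT and 42, 32 and 28 in U87Mut. Its log2 ratio was -0.02 without IGF1 and 0.02 with IGF1. With OSI906 the U87Mut channel was not well above background, and the log2 ratio of 0.15 there is not read as a difference. By limma the mean was 0.05 ± 0.05 (SE, n = 3 arrays, adjusted p = 0.660).

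The calls of limma depended on the processing and on single arrays. Of the alternative settings that can move the ratio, the call held in 5 of 9 for HIF1A, and in 4 of 8 for ANGPTL4, 5 of 8 for NDRG1 and 3 of 8 for BNIP3. The call of the second VEGFA probe held in 6 of 8. Without the array for IGF1 with OSI906, limma called 0 of the 10 genes and 232 of all probes. Without the array for FBS-free medium it called 1 of the genes (ANGPTL4) and 1159 of all probes.

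The response of each clone was read as the difference between arrays in the normalized log2 brightness of its own channel, which has the same dye throughout. A difference past 1 was counted, and no test is possible with 1 array per condition. After IGF1, 0 of the 10 genes lay past 1 in U87WT and 0 in U87Mut, against 0.421% and 0.055% of all probes. With OSI906 against IGF1 alone, 1 lay past 1 in U87WT (VEGFA) and 0 in U87Mut, against 0.56% and 0.131% of all probes. Both comparisons use the IGF1 array, so their values are not independent. Over the 274 bright probes that have 10 spots, the median SD over spots of such a difference was between 0.07 and 0.08 in either clone.

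**Figure D3:**
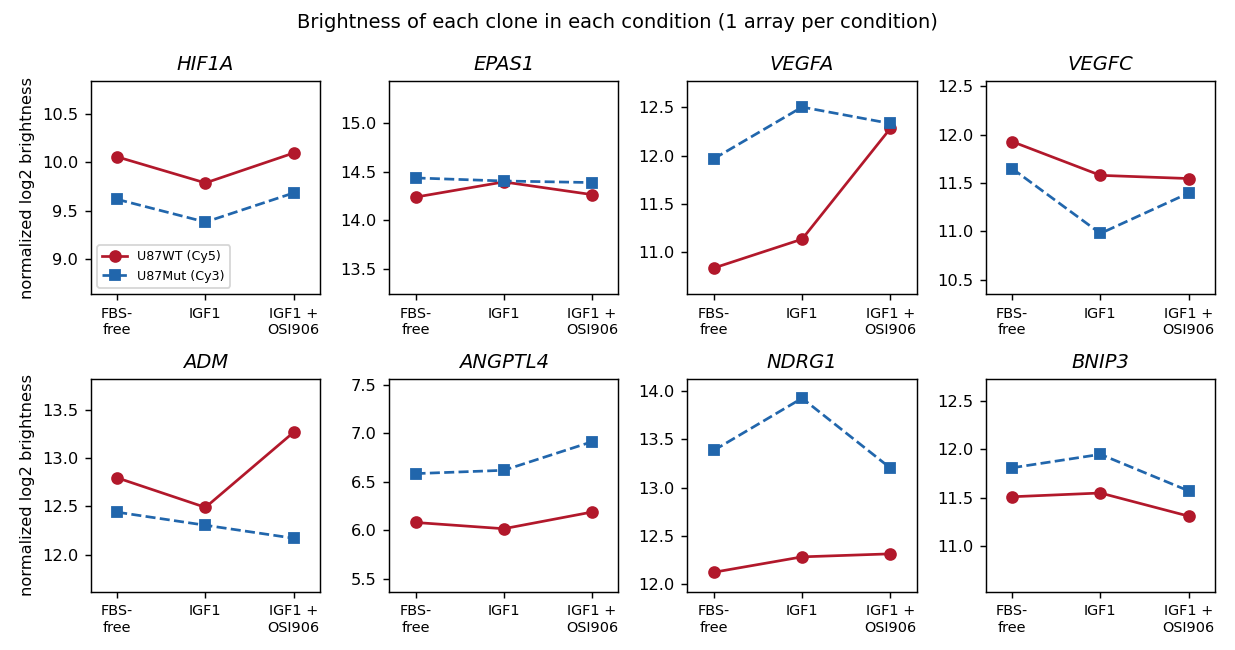
Normalized log2 brightness (y axis, the same span of 2.2 in each panel) of U87WT (solid line, circles) and U87Mut (dashed line, squares) in each condition (x axis, 1 array each) for the 8 genes well above background in all channels. VEGFA and ADM stand higher with OSI906 in U87WT, and NDRG1 stands highest after IGF1 in U87Mut.

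VEGFA had the widest response of the 10 genes. By the brighter probe, normalized log2 brightness was 10.84, 11.14 and 12.28 in U87WT and 11.97, 12.50 and 12.33 in U87Mut in FBS-free medium, IGF1 and IGF1 with OSI906. It was 0.30 higher after IGF1 in U87WT and 0.53 higher in U87Mut. These IGF1 values were 0.69 and 0.14 with the median in place of loess, which turns the order of the clones, and 0.05 and 0.28 without normalization between arrays. With OSI906 it was a further 1.14 higher in U87WT, a fold of 2.21, which put it 1.44 above FBS-free medium, and 0.17 lower in U87Mut, so the clone ratio moved by 1.31. By the second probe, brightness with OSI906 was 0.25 higher in U87WT and 0.35 higher in U87Mut, and the ratio moved by -0.10. The result with OSI906 rests on 1 of 2 probes, and with the mean of both probes 0 of the 10 genes lay past 1.

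ADM, like VEGFA by its brighter probe, was higher with OSI906 in U87WT and not in U87Mut. Normalized log2 brightness was 12.80, 12.49 and 13.27 in U87WT and 12.44, 12.31 and 12.17 in U87Mut. It was 0.31 lower after IGF1 in U87WT and 0.13 lower in U87Mut, and 0.07 higher and 0.52 lower with the median in place of loess. With OSI906 against IGF1 alone it was 0.78 higher in U87WT and 0.13 lower in U87Mut, and the SD of the 10 spots of that difference was 0.11 and 0.13.

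For NDRG1, normalized log2 brightness was 12.12, 12.28 and 12.31 in U87WT and 13.38, 13.92 and 13.20 in U87Mut. In U87Mut it was 0.54 higher after IGF1 and 0.72 lower with OSI906 than after IGF1 alone. In U87WT it was 0.16 and 0.03 higher. With the median in place of loess the order of the clones after IGF1 turned, to 0.56 higher in U87WT and 0.13 higher in U87Mut. The share of probes well above background whose ratio was more than 0.5 higher with OSI906 than after IGF1 alone was 2.82%, and the ratios of VEGFA, ADM and NDRG1 were 1.31, 0.91 and 0.75 higher.

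VEGFC moved the other way with IGF1. Normalized log2 brightness was 11.93, 11.58 and 11.55 in U87WT and 11.65, 10.98 and 11.40 in U87Mut. After IGF1 it was 0.35 lower in U87WT and 0.67 lower in U87Mut, and with OSI906 it was 0.03 lower and 0.42 higher than after IGF1 alone. With the median in place of loess the IGF1 values were 0.01 in U87WT and -1.03 in U87Mut. The brighter HIF1A probe was 0.27 lower in U87WT and 0.23 lower in U87Mut after IGF1, and 0.31 and 0.30 higher with OSI906. The second HIF1A probe was 0.28 and 0.31 higher after IGF1, and with OSI906 0.34 higher in U87WT and 0.08 lower in U87Mut. The IGF1 values of the brighter probe were -0.51 in U87WT and -0.04 in U87Mut with all spots in the background fit, and 0.07 and -0.57 with the median in place of loess, so no direction is given for the HIF1A response.

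The remaining genes differed less between conditions. EPAS1 lay within 0.16 of its value in FBS-free medium in both clones after IGF1 and with OSI906. With the median in place of loess, its IGF1 values were 0.57 in U87WT and -0.44 in U87Mut. BNIP3 was 0.04 and 0.14 higher after IGF1 in U87WT and U87Mut, and 0.24 and 0.38 lower with OSI906 than after IGF1 alone. ANGPTL4 was 0.06 lower and 0.03 higher after IGF1, and 0.17 and 0.29 higher with OSI906 than after IGF1 alone. Over the settings, that OSI906 value of ANGPTL4 in U87WT ran from -0.38 to 1.14. CA9 and EGLN3 lay near or under background, and their differences are not read.

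Genes around the 10 were read from 3 lists. To set their counts against, 4.78%, 5.41% and 4.59% of the probes well above background lay above 0.5 on the 3 arrays and 4.69%, 3.7% and 4.2% below -0.5, and limma called 8.61% of them higher and 8.61% lower in U87WT. HIF regulation holds 14 genes for the partners, hydroxylases, VHL complex and coactivators of the factors, and 13 were well above background. Of the 14, 0, 1 and 0 lay above 0.5 on the 3 arrays and 0, 0 and 0 below -0.5. The median log2 ratio was -0.02, 0.07 and -0.11, against -0.002, 0.009 and -0.004 over all genes. By limma 1 of the 14 passed, the coactivator CREBBP, which was higher in U87WT with log2 ratios of 0.27, 0.56 and 0.36 (adjusted p = 0.035).

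The list of other hypoxia-induced genes has 34 symbols, of which 33 had a probe and all 33 were well above background. On the 3 arrays, 1, 1 and 3 lay above 0.5 and 5, 5 and 5 below -0.5. The median log2 ratio was -0.13, -0.16 and -0.17, against -0.01, 0.02 and -0.01 over all genes well above background. By limma 2 were higher in U87WT, CA12 and PFKFB3, and 9 were lower (DDIT4, VLDLR, ANKRD37, PDK1, LDHA, ENO1, TPI1, HILPDA and STC2), beside the shares of 8.61% given above. Those lower by more than 0.5 on every array were DDIT4, ANKRD37 and VLDLR, and 0 were higher by more than 0.5 on every array.

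DDIT4, an inhibitor of mTORC1, had log2 ratios of -1.46, -1.29 and -0.55 (mean by limma -1.10, adjusted p = 0.036). ANKRD37, a target of HIF1, had log2 ratios of -0.73, -0.91 and -0.60 (adjusted p = 0.009). VLDLR, a lipoprotein receptor, had log2 ratios of -0.90, -0.53 and -0.84 (adjusted p = 0.013). Like NDRG1, these were lower in U87WT in all 3 conditions. The glycolytic enzymes LDHA, ENO1 and TPI1 and the kinase PDK1, which passed in the same direction, differed by less, with means of -0.36, -0.36, -0.21 and -0.49. In the responses, STC2, a secreted glycoprotein, was the only gene of the 3 lists well above background to differ by more than 1, and was 1.66 higher in U87WT and 1.64 higher in U87Mut with OSI906 than after IGF1 alone.

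Of 25 angiogenic ligands, receptors and modulators, 13 were well above background. On the 3 arrays, 2, 2 and 2 of the 25 lay above 0.5 and 1, 0 and 0 below -0.5. Of the 13 well above background, 2, 1 and 2 lay above 0.5 and 1, 0 and 0 below -0.5. The median log2 ratio of the 25 was 0.04, 0.09 and 0.02, against -0.002, 0.009 and -0.004 over all genes. By limma 3 were higher in U87WT and 0 lower, beside 17.2% of the probes well above background called in either direction: VEGFB, a ligand of FLT1, ANGPT1, a ligand of the TEK receptor, and THBS2, an inhibitor of vessel growth. THBS2 was above 0.5 on every array, with log2 ratios of 0.80, 0.79 and 0.70 (mean by limma 0.76, adjusted p = 0.004). The receptors of VEGFA and VEGFC were dim: FLT1 was well above background in 0 of 6 channels, KDR in 3 and FLT4 in 2, while the co-receptor NRP1 was well above background in all 6.

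**Figure D4:**
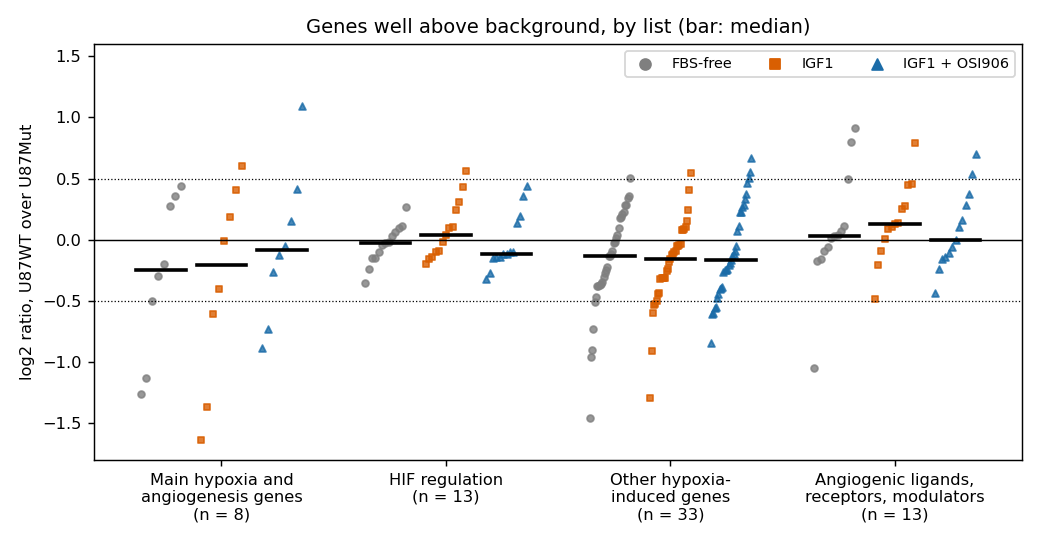
Clone log2 ratio (y axis, U87WT over U87Mut) of the genes well above background in the main set and in each of the 3 lists (x axis), on the arrays for FBS-free medium (circles), IGF1 (squares) and IGF1 with OSI906 (triangles); black bars are medians and dotted lines stand at -0.5 and 0.5. The medians of the other hypoxia-induced genes are -0.13, -0.16 and -0.17 and those of HIF regulation lie between -0.11 and 0.04.

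The labelled cell type was checked against marker genes. VIM, NES and CD44, which glioma lines express, were well above background in all 6 channels, NES being the dimmest of them (mean brightness 86.9). OLIG2 was well above background in all 6 but dim (33.8), and S100B was in 2 of 6. The astrocyte marker GFAP and the stem cell factor SOX2 were well above background in 0 of 6. Of 6 endothelial markers, CDH5 and VWF were above background in all channels but dim (mean brightness 35.2 and 33.3), KDR was in 3 of 6 channels, PECAM1 and TEK in 1 and TIE1 in 0. Of the pericyte markers, PDGFRB was higher in U87WT, with log2 ratios of 1.10, 1.11 and 0.75 (adjusted p by limma 0.008), while RGS5 (0.09, -0.04 and 0.09) and DES (0.17, 0.03 and 0.22) did not pass. The leukocyte markers PTPRC and CD14 were dim (40.6 and 53.5). Their part in the ratios above was not tested. IGF1R, the transfected gene, had brightness of 445, 520 and 324.5 in U87WT and 447, 308.5 and 289.5 in U87Mut and log2 ratios of 0.07, 0.23 and 0.09 (mean by limma 0.13, adjusted p = 0.207). Whether its probe lies in the transfected coding sequence is not given in the sources used here, so it checks neither clone.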

How the data were processed

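RNA of U87WT (Cy5) and U87Mut (Cy3) was measured on 3 two-color Agilent SurePrint G3 v3 arrays, 1 per condition, on 1 slide and in 1 scan per the file headers. The authors deposited, per the file headers, spot and background intensity from Feature Extraction 12.0.3.1, unnormalized, with processed intensity and a log10 ratio. They also deposited log2 ratios per probe, background-corrected and normalized with limma. Each array held 62976 spots, 60901 of them not controls, and probes well above background in both channels made up 50.1% to 52.8%. Median spot intensity was 33 to 35 in Cy5 and 30.5 to 33.5 in Cy3. The number of arrays limits the precision.

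The analysis used limma 3.58.1 in R 4.3.3. Normexp with an offset of 50 was fitted without the spots marked as not uniform (384, 572 and 5 in FBS-free medium, IGF1 and IGF1 with OSI906), since with all spots the fitted Cy5 background of the IGF1 array had an SD of 701 in place of 1.32. Loess within and Aquantile between arrays followed, and each probe is the mean of its spots less 95, 117 and 95 outlier spots per array. The channel of a clone was the mean log2 brightness of both channels shifted by 0.5 of the log2 ratio to either side. limma (lmFit, eBayes, intercept only) tested the mean ratio with Benjamini-Hochberg at 5%. Symbols came from RefSeq transcripts on GRCh38.p14 for 34892 of 36770 probes with such a transcript. On simulated ratios, 200 of 200 probes moved by 1 on the log2 scale were called with 10 of the others. The simulated noise was independent, of equal size for all probes and without a response to treatment. It therefore does not measure false calls, or the sensitivity to smaller ratios, in these data. The genes and lists were chosen with earlier results of these data known. From the lists, the text names genes past 0.5 in the same direction on all 3 arrays, at most 4 per direction; other genes of the lists and markers were named after their values were seen. ALDOA and CD68 had no named probe. Alternatives were other background fits, signals, normalizations, limits and probe rules, the deposited table and leaving out each array.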

Additional observations from a re-analysis of the deposited data

How the results depend on the processing

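Of the single ratios and responses of the 10 genes under the alternatives, 420 stayed within 0.144 and 116 moved by more. That size was scaled from the SD of the difference in clone ratio between the arrays for FBS-free medium and for IGF1 with OSI906. It therefore holds any response to treatment as well as noise, and it was used for the responses of single channels too. No value past its limit changed sign. Under at least 1 alternative, 7 of 30 ratios did (HIF1A, EPAS1, BNIP3 and CA9 after IGF1, EPAS1 and VEGFA with OSI906, CA9 in FBS-free medium), as did 18 of 40 responses, those of U87WT to IGF1 for HIF1A, EPAS1, VEGFC, BNIP3, ADM, ANGPTL4, NDRG1 and EGLN3 among them. The counts past 0.5 were 3, 4 and 3 in FBS-free medium, IGF1 and IGF1 with OSI906. With a limit of 1 they were 2 after IGF1 and 1 with OSI906. With the limit of 0.5 SD of each array that the methods give, they were 8, 7 and 8. That limit was only 0.113, 0.119 and 0.108, below the 0.144 given above. The share of all probes past it was not computed, so those counts are not read. With the processed signals of the scanner software the count past 0.5 was 5 in FBS-free medium, and with the median in place of loess it was 7 after IGF1. The 4 limma calls became 1 with the deposited log2 ratios (NDRG1) and 0 with all spots in the background fit, with the scanner's processed signals and with the median in place of loess, where 5, 3 and 4 of the 10 genes had an unadjusted p under 0.05. Adjusted p over these alternatives, 9 for HIF1A and 8 for the others, ran from 0.00667 to 0.475 for HIF1A, 0.000521 to 0.340 for ANGPTL4, 0.00115 to 0.237 for NDRG1 and 0.0233 to 0.837 for BNIP3. Leaving out 1 array at a time gave 0 to 4 calls. Over all probes, limma called 4907, against 675 with all spots in the fit, 785 with the deposited ratios, 0 with the median or the scanner's signals (5127 and 9951 at an unadjusted p under 0.05), and 1159, 6033 and 232 without FBS-free medium, IGF1 and IGF1 with OSI906. The response of U87WT to OSI906 over IGF1, with 1 gene past 1, gave 0 with the mean of both probes or the median in place of loess, 2 with the scanner's signals and 2 at a limit of 0.5. The response of U87Mut to IGF1, with 0 past 1, gave 1 with the median (VEGFC) and 3 at a limit of 0.5, and that to OSI906 over IGF1, with 0, gave 1 with the scanner's signals and 1 at a limit of 0.5. Without normalization between arrays, the U87WT response to IGF1 of the median probe moved by -0.12. The VEGFA response of U87WT to OSI906 by its brighter probe lay between 0.97 and 1.16, and the ADM ratio with OSI906 between 1.03 and 1.33. The cause of these changes was not tested. No paired analysis was possible because each condition has 1 array and no replicate numbers to match; the clones share each array, and the limma test is of those ratios within arrays. CA9, ANGPTL4 and EGLN3, close to background, are limited by signal.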

Other observations

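The genes most like VEGFA and HIF1A over the 6 channel values, each gene centred on its mean, were listed among 15338 genes well above background. Nearest to VEGFA were LUCAT1, FOSL1 and KBTBD11, at Euclidean distances of 0.424, 0.456 and 0.598 on the log2 scale, against a median distance of 1.58. This is for the brighter VEGFA probe, which was 1.14 higher with OSI906 than after IGF1 alone in U87WT. The second probe was 0.25 higher there, and its likeness was not computed. Nearest to HIF1A were SARAF, DECR2 and IFNAR1, at 0.0585, 0.0703 and 0.0709, against a median of 0.673. The 6 values share arrays, slide and normalization, and the lists are a description.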
